A study of Mus musculus with 26 samples.

Results

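The genes described here copy the DNA and divide the cell. They are 59 genes taken by symbol, 37 of DNA replication and 22 of mitosis, out of 10104 genes with a listed transcript in either cell type. The genes were grouped by function, and no threshold on a measured value defines the list. Transcripts of 55 of the 59 genes (35 replication and 20 mitotic) were listed among the 8530 transcripts of murine oligodendrocyte progenitor cells (OPCs), and 37 (25 and 12) among the 9751 transcripts of oligodendrocytes (OLs), the myelin-forming cells made from them. Gins3, Lig1, Cenpe and Ndc80 were listed for neither cell type and have no value here.

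Both cell types were of strain 129S/SvEv, and the OPCs had been derived from epiblast stem cells. OPCs were kept in medium with the mitogens bFGF and PDGFA. OLs were OPCs passaged without bFGF and then held for 40 h in medium with noggin, IGF-1, cyclic AMP, NT3 and the thyroid hormone T3 before the label was added. Both were then given 5-ethynyluridine (5-EU), a uridine analogue, for 24 h, after which uridine replaced it and RNA was collected at 0, 1, 2, 4 and 6 h of this chase. The labelled RNA was coupled to biotin, pulled down and sequenced in 3 OPC and 2 OL replicates, which are the n of every mean below. At 0 h the values therefore measure RNA made over the preceding 24 h and still present, and the later time points measure what was left of it. An OPC sample without biotin was not analysed here. The study states that differentiated cultures keep a population of undifferentiated cells, and all cells are of 1 derivation route in culture.

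Replication starts where the MCM helicase has been loaded on DNA by licensing factors and is switched on by Cdc45 and the GINS complex; polymerases then copy both strands with the sliding clamp Pcna, while ribonucleotide reductase and thymidylate synthase supply nucleotides. In mitosis, cyclin B with Cdk1 drives entry, the kinases Plk1, Aurka and Aurkb build the spindle, and the checkpoint proteins hold Cdc20 back until chromosomes are attached. Replication genes are transcribed mainly in S phase through E2F sites, and many mitotic genes later, in G2, through CHR elements and CCAAT boxes. Progenitors divide under PDGFA and leave the cell cycle as they become OLs.

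The labelled cell types were checked against their markers at 0 h. Of 14 OL markers, 12 were listed for OLs and 4 for OPCs, and their summed level was 7097 and 3405 FPKM in OL replicates 1 and 2 and 45.2 to 71.9 FPKM in the 3 OPC replicates. FPKM are fragments per kilobase of transcript, scaled to the library and, per the authors, to spike-in RNA. All 10 OPC markers were listed for both, at a summed 1604 to 1786 FPKM in OPCs and 1584 and 1398 FPKM in OLs, of which Olig1 made up 1009 to 1079 and 635 and 506 FPKM. Of the 10, 5 were higher in OLs and 3 lower (limma), and Gpr17 (5.00 to 6.61 FPKM in OPCs, 323 and 299 FPKM in OLs), Sox10 and Pdgfra were among the higher ones. Of 8 astrocyte markers, 4 were listed for OPCs (253 to 300 FPKM in all) and 6 for OLs (511 and 609 FPKM), with Aqp4 in neither, and of 8 neuron markers 3 and 4 (83.3 to 189 and 200 to 215 FPKM), with Rbfox3 and Stmn2 in neither. No microglial, pluripotent, endothelial or mural marker was listed. The part of these other cells in the results below was not tested. Depth is unknown, since counts cannot be recovered from FPKM.

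Promoters were searched for the E2F, CHR and CCAAT letters in 300-base windows around the RefSeq transcription starts (GRCm38.p6), which covered 29 replication and 19 mitotic genes, Gins3, Lig1, Cenpe and Ndc80 among them. The E2F letters (TTTCGCGC, TTTGGCGC, TTTCCCGC or TTTGCCGC, either strand) occurred in 12 of the 29 replication genes (41.4%) and in 1 of the 19 mitotic genes (5.26%), against 5.23% of the 6830 matched genes listed for OPCs and 2.605% of all 27025 genes with a window. The CHR letters (TTTGAA or TTCGAA, either strand) occurred in 7 replication genes (24.1%) and 14 mitotic genes (73.7%), against 15.65% of genes listed for OPCs and 21.7% of all genes. CCAAT, on either strand, was in 20 replication genes (69.0%) and 15 mitotic genes (78.9%), against 43.4% and 41.1%. Matches to the E2F and the CHR letters cannot overlap, whereas a CHR match may share a base with CCAAT. A match is a description of the letters and not a bound site. The 6 promoters below are shown because their genes carry the results that follow, with E2F and CHR matches in capitals. Mcm6, Mcm5 and Pclaf have E2F letters only, Cdk1 has both kinds, and Top2a and Cdc20 have CHR letters only. In Mcm6 and Mcm5 a 12-base run holds a match on each strand.
Mcm6 (chr1:128359656-128359955, minus strand): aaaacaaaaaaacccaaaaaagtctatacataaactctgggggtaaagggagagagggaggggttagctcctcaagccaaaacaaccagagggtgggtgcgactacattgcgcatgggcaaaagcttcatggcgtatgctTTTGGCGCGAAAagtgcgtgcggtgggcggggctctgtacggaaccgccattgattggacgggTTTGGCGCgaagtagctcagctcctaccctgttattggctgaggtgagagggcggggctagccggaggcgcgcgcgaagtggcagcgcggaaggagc
Mcm5 (chr8:75109259-75109558, plus strand): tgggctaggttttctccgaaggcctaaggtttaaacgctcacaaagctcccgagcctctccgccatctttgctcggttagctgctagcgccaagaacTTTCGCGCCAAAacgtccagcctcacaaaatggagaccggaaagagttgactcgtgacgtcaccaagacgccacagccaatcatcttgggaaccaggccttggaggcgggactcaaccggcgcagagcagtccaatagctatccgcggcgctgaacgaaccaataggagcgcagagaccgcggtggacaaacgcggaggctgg
Pclaf (chr9:65890073-65890372, plus strand): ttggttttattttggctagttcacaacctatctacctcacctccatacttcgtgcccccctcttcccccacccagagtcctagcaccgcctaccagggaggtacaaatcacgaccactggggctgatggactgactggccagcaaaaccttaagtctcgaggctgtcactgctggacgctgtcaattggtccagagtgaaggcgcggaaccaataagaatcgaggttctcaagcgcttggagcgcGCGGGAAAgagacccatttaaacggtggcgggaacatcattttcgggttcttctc
Cdk1 (chr10:69352863-69353162, minus strand): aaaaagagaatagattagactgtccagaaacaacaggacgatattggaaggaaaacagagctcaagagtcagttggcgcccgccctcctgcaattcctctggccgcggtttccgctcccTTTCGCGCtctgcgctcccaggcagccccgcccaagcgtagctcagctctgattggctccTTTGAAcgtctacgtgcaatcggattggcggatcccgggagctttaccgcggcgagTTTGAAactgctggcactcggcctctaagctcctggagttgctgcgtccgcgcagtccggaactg
Top2a (chr11:99024140-99024439, minus strand): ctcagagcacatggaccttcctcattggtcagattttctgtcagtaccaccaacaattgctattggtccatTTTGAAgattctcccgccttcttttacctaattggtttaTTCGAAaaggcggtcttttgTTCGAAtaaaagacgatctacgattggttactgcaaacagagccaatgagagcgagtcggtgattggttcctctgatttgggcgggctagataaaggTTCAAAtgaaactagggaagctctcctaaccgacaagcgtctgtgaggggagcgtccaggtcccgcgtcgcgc
Cdc20 (chr4:118437294-118437593, minus strand): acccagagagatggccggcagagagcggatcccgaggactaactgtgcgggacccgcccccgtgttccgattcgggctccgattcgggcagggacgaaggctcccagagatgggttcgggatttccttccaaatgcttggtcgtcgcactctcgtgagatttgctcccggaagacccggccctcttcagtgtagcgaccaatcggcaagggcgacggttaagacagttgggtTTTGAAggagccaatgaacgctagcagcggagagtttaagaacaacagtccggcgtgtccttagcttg

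**Figure D1:**
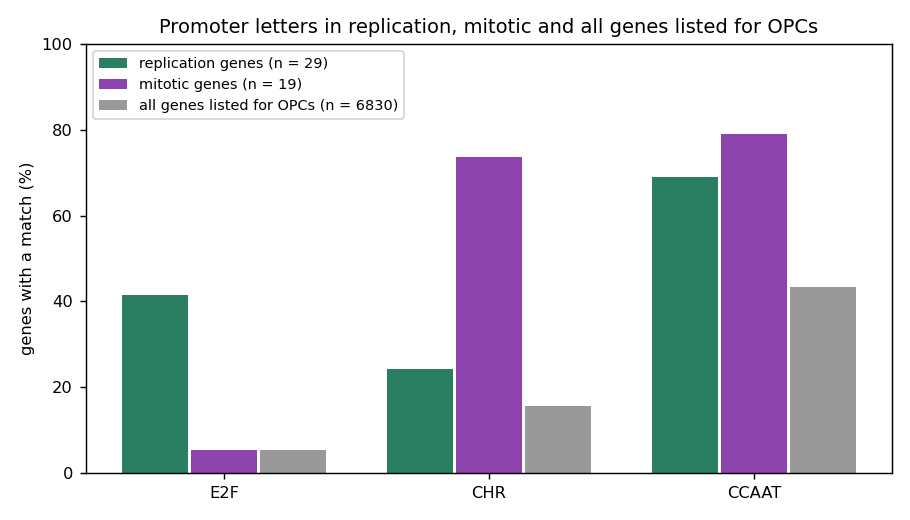
Share of genes (%, y axis) with at least 1 match to the E2F, CHR or CCAAT letters in the promoter window, for 29 replication genes, 19 mitotic genes and 6830 genes listed for OPCs. E2F letters stand at 41.4% in replication genes and CHR letters at 73.7% in mitotic genes, against 5.23% and 15.65% of all genes listed for OPCs.

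The first difference between the cell types is which genes were listed at all. Each table had been filtered by the authors on the 0 h level (1 FPKM) and on values of 0 at 1 and 2 h, and no listed transcript was at 0 at these times. A gene not listed for OLs may have failed either part, so its OL level at 0 h need not be under 1 FPKM. Of the 55 listed genes in OPCs, 18 were not listed for OLs, 10 of 35 replication genes and 8 of 20 mitotic genes, whereas 353 of all 8530 OPC transcripts (4.14%) were not. None was listed for OLs only. The replication genes were the licensing factor Cdt1 and its inhibitor Gmnn, the helicase activators Mcm10, Cdc45, Gins1 and Gins2, the clamp loader subunit Rfc4, and the polymerase and primase subunits Pola2, Prim1 and Pole. The mitotic genes were the cyclin Ccnb2 and its kinase Cdk1, the checkpoint kinases Bub1, Bub1b and Ttk, the kinase Aurkb, the spindle factor Tpx2 and the kinetochore subunit Nuf2.

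These 18 genes were not the lowest in OPCs. Their mean level there ran from 10.6 FPKM (Gmnn) to 84.5 FPKM (Cdk1), with a median of 17.9 FPKM, against a median of 6.04 FPKM over all 353 such transcripts. Cdk1 stood at 82.6, 81.6 and 89.5 FPKM in OPC replicates 1, 2 and 3 and Aurkb at 61.1, 58.0 and 60.2 FPKM, ranks 3 and 5 by level among the 353. Cdc6, a licensing factor with a mean of 10.6 FPKM in OPCs, was still listed for OLs, at 1.87 and 1.37 FPKM. No fold change is given for the 18 genes because their OL values were not used here.

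Of the 37 genes listed for both, 32 had less labelled RNA at 0 h in OLs and 0 had more (limma on log2(FPKM + 1), adjusted p under 0.05), where 15.8% of all 8177 shared transcripts were lower and 13.8% higher. The 32 were 23 of 25 replication and 9 of 12 mitotic genes. The median log2 difference, OL minus OPC, was -2.13 over replication genes and -2.62 over mitotic genes, and -0.01 over all shared transcripts. In 34 of the 37 genes both OL replicates lay below all 3 OPC replicates, which held for 31.4% of all shared transcripts, and in 0 both lay above, against 28% of transcripts. In such bulk samples, fewer dividing cells and less RNA in each cell cannot be told apart.

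**Figure D2:**
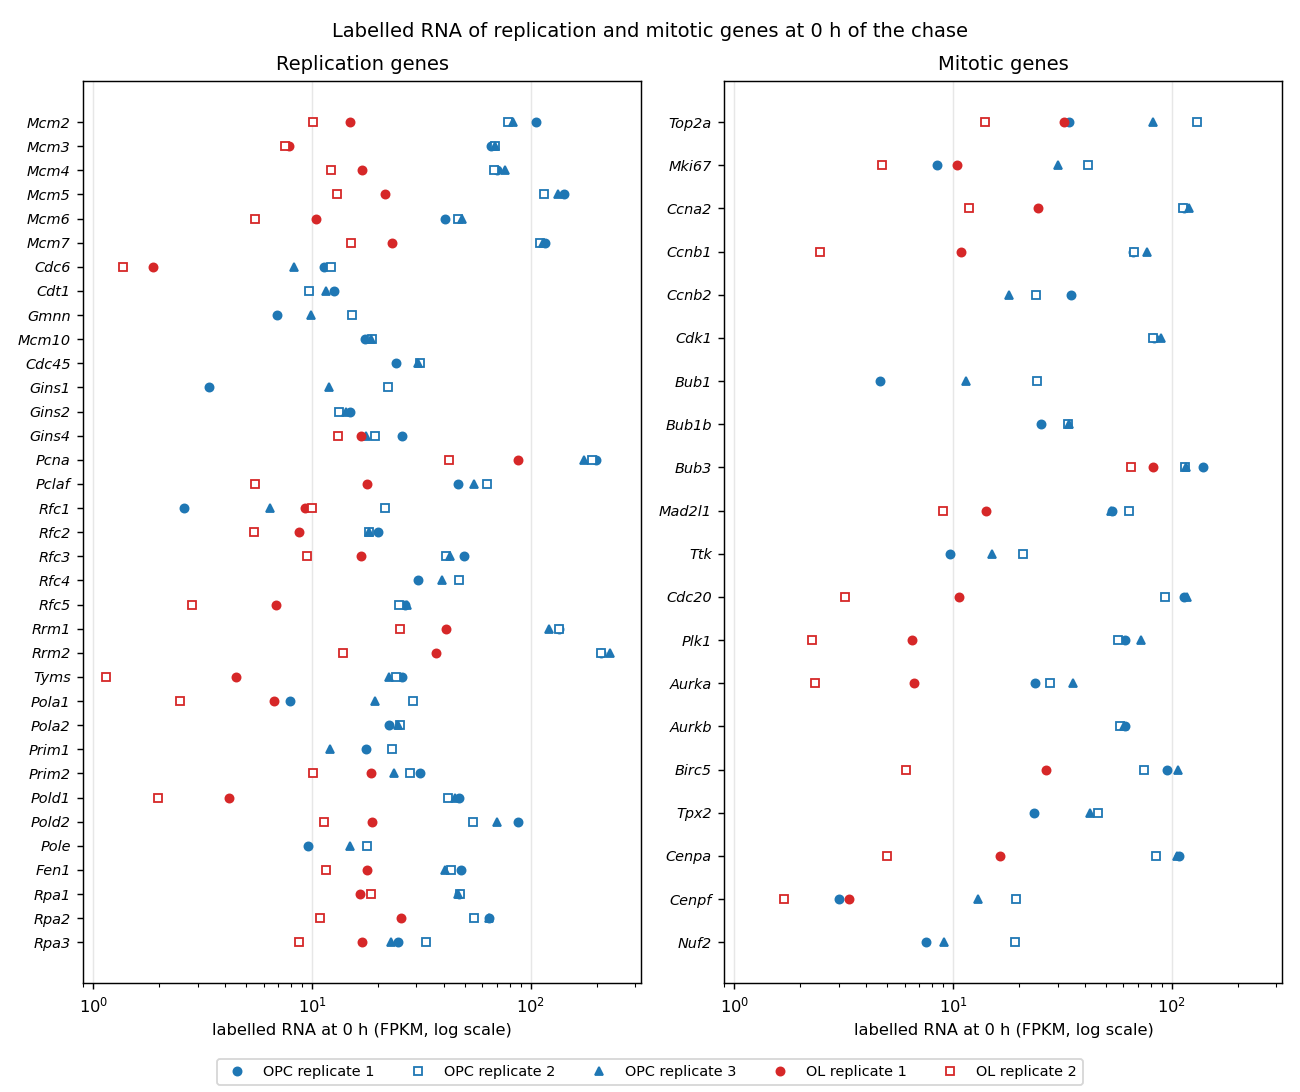
Labelled RNA at 0 h (FPKM, log x axis) of the 35 replication genes (left) and 20 mitotic genes (right) listed for OPCs, 1 symbol per replicate (OPC blue, OL red). For 34 of the 37 genes with OL values both red symbols lie left of all blue ones; Rfc1, Mki67 and Cenpf are the exceptions, and rows without red symbols were not listed for OLs.

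The 6 subunits of the replicative helicase moved together. Mcm3 was at 66.1, 68.6 and 68.9 FPKM in OPC replicates 1, 2 and 3 and at 7.86 and 7.53 FPKM in OL replicates 1 and 2, a log2 difference of -2.99 ± 0.20 (SE, adjusted p 0.000132). Mcm5 was at 141, 114 and 133 FPKM in OPCs and 21.5 and 13.1 FPKM in OLs (-2.87 ± 0.26, adjusted p 0.00033). Mcm2 was at 106, 79.0 and 82.8 FPKM in OPCs and 14.9 and 10.1 FPKM in OLs (-2.75 ± 0.25, adjusted p 0.00033). The groups did not overlap for any of the 6 subunits, and the OPC mean was 4.90 (Mcm4) to 8.82 (Mcm3) times the OL mean.

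The 3 nucleotide supply genes were also lower in OLs. Rrm2, the S-phase subunit of ribonucleotide reductase, had the highest OPC level of the 55 replication and mitotic genes, at 209, 210.1 and 229 FPKM, and stood at 37.0 and 13.8 FPKM in OLs (-3.19 ± 0.37, adjusted p 0.000735). Tyms, thymidylate synthase, was at 25.8, 24.1 and 22.4 FPKM in OPCs and 4.47 and 1.14 FPKM in OLs (-2.87 ± 0.37, adjusted p 0.00124). For both genes all OL values lay below all OPC values, and OL replicate 2 was the lowest. Rrm1, the larger subunit, was lower by a smaller amount (-1.98 ± 0.26, adjusted p 0.00128).

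Polymerases and their accessory factors spread widely. Pold1, the catalytic subunit of polymerase delta, was at 47.0, 42.0 and 45.1 FPKM in OPCs and 4.19 and 1.98 FPKM in OLs (-3.54 ± 0.27, adjusted p 0.0002), the largest difference among the replication genes tested. Its partner subunit Pold2 differed less, by -2.17 ± 0.30 (adjusted p 0.00166). Pcna was at 198, 190.3 and 175 FPKM in OPCs and 87.8 and 42.1 FPKM in OLs (-1.61 ± 0.31, adjusted p 0.00806). Pclaf, which binds Pcna, was at 46.7, 63.1 and 55.1 FPKM in OPCs and 17.9 and 5.48 FPKM in OLs (-2.33 ± 0.42, adjusted p 0.00554). The 3 subunits of RPA, which coats single strands, differed by -1.06 to -1.81 and all passed the test. Gins4, the GINS subunit listed for both cell types, did not pass (25.8, 19.5 and 17.7 FPKM against 16.7 and 13.1 FPKM, -0.46 ± 0.25, adjusted p 0.193). Rfc1, the large subunit of the clamp loader, did not pass either (2.60, 21.5 and 6.44 FPKM against 9.25 and 9.96 FPKM, 0.33 ± 0.64, adjusted p 0.726), and its OPC values lay on both sides of its OL values.

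Cdc20 and Plk1, of the mitotic genes, had the largest differences of the list. Cdc20, the activator of the anaphase-promoting complex, was at 113, 92.5 and 118 FPKM in OPC replicates 1, 2 and 3 and at 10.6 and 3.20 FPKM in OL replicates 1 and 2 (-3.96 ± 0.40, adjusted p 0.000419). Plk1 was at 61.3, 56.9 and 72.3 FPKM in OPCs and 6.51 and 2.25 FPKM in OLs (-3.70 ± 0.35, adjusted p 0.000352). Ccnb1, cyclin B1, was at 66.5, 67.0 and 77.1 FPKM in OPCs and 10.9 and 2.47 FPKM in OLs (-3.47 ± 0.45, adjusted p 0.00133). Cenpa, the histone of centromeres, was at 107, 84.3 and 106 FPKM in OPCs and 16.3 and 4.97 FPKM in OLs (-3.29 ± 0.41, adjusted p 0.00109). None of these 4 genes overlapped between the groups, and their OPC means were 9.32 to 15.7 times their OL means. Bub3, a checkpoint protein, stood apart from them (139, 115 and 116 FPKM against 81.5 and 64.6 FPKM), with a difference of -0.75 ± 0.23 (adjusted p 0.0388) and the highest OL level of the mitotic genes.

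Top2a, Mki67 and Cenpf did not pass the test, all of them with a low value in OPC replicate 1. Top2a, the topoisomerase that untangles sister chromatids, was at 33.7, 129.9 and 81.9 FPKM in OPC replicates 1, 2 and 3 and at 32.2 and 13.9 FPKM in OLs (-1.70 ± 0.55, adjusted p 0.0512). Mki67, which coats mitotic chromosomes, was at 8.46, 41.3 and 30.2 FPKM in OPCs and 10.4 and 4.73 FPKM in OLs (-1.52 ± 0.60, adjusted p 0.0917). Cenpf, a kinetochore protein, was at 2.99, 19.3 and 13.0 FPKM in OPCs and 3.34 and 1.69 FPKM in OLs (-1.61 ± 0.62, adjusted p 0.0825). OPC replicate 1 reached down to the OL range in Mki67 and Cenpf and nearly so in Top2a. OPC replicate 2 was over 2 times OPC replicate 1 for 10 of the 55 genes listed in OPCs, against 12.3% of all OPC transcripts. The median G+C share at the third codon position (GC3) of these 10 genes was 44.9%, and 59.6% in the other 45. Over 8518 OPC transcripts, which are not independent, Spearman's rho between GC3 and the ratio of replicate 2 to replicate 1 was -0.49. The part of base composition in the levels of these genes was not tested.

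The OL replicates differed from each other in these genes in one direction. OL replicate 1 was above OL replicate 2 at 0 h in 35 of the 37 genes, where it was above in 43.1% of shared transcripts, and over 1.5 times as high in 29 of the 37, against 5.86%. The median ratio of OL replicate 1 to OL replicate 2 was 1.67 over 25 replication genes and 2.57 over 12 mitotic genes, and 0.953 over all shared transcripts. Rpa1 and Rfc1 were the 2 genes with the lower value in replicate 1, named after their values were seen. With 1 OL replicate left out, 27 (without OL replicate 2) and 30 (without OL replicate 1) of the 37 genes were lower in OLs, with the spread taken from the OPCs alone and the lone OL sample assumed to vary as they do. OL replicate 1 also had the higher summed OL marker level (7097 against 3405 FPKM), and OL replicate 2 the higher summed astrocyte marker level (609 against 511 FPKM). The part of the state of the OL cultures in these differences was not tested.

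Over the chase in OPCs, 51 of the 55 genes fell and 0 rose (slope of log2(FPKM + 1) on time, limma, adjusted p under 0.05), where 81.7% of all 8530 transcripts fell and 4.31% rose. Replication genes (35) had a median slope of -0.44 log2 units per h and mitotic genes (20) one of -0.55, beside -0.38 over all OPC transcripts. All 20 mitotic genes fell. When each library was scaled to the median of its own 0 h library, which takes out the decline shared by all transcripts, 20 of the 55 fell and 18 rose, where 25.4% of all OPC transcripts fell and 34% rose.

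The steepest replication genes in OPCs were 2 clamp loader subunits and a helicase activator. Rfc3 had a slope of -0.95 ± 0.09 (SE, adjusted p 1.28e-07) and kept 20.0%, 89.0% and 64.4% of its 0 h level at 2 h in replicates 1, 2 and 3. Cdc45 had a slope of -0.87 ± 0.08 (adjusted p 8.27e-08) and kept 56.2%, 82.8% and 55.3% at 2 h. Rfc4 had a slope of -0.84 ± 0.09 (adjusted p 3.28e-07) and kept 49.4%, 77.6% and 77.2%. All 3 were listed at 0 in all 3 OPC libraries of 6 h, which makes their slopes depend on the pseudocount. Among mitotic genes the kinases Aurka (-0.78 ± 0.09, adjusted p 5.56e-07) and Plk1 (-0.73 ± 0.07, adjusted p 6.78e-08) were steepest, followed by Bub3 (-0.66 ± 0.07, adjusted p 2.05e-07). Aurka kept 10.1%, 25.03% and 14.4% of its 0 h level at 2 h in the 3 replicates.

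The shallowest slopes were found in a few genes of each class. Pold2 (-0.05 ± 0.05, adjusted p 0.333), Pclaf (-0.07 ± 0.04, adjusted p 0.0979) and Rrm1 (-0.09 ± 0.04, adjusted p 0.0575) had the smallest declines of the replication genes in OPCs, and none passed the test. Pclaf still held 56.0%, 74.6% and 64.9% of its 0 h level at 6 h, and Rrm1 held at least 41.6% in each replicate. The median over all OPC transcripts shared with OLs was 14.8%, 11.3% and 18.1% at 6 h in the same replicates. Top2a (-0.16 ± 0.06, adjusted p 0.0258), Cenpf (-0.28 ± 0.06, adjusted p 0.000586) and Mki67 (-0.28 ± 0.06, adjusted p 0.000628) were the shallowest mitotic genes. Top2a was above its own 0 h level at 4 h in replicates 1 (202%) and 3 (133%) and below it in replicate 2 (58.5%).

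Over the chase in OLs, 33 of the 37 genes fell and 0 rose, where 68.4% of all 9751 transcripts fell and 1.5% rose. The median slope was -0.27 over 25 replication genes, -0.32 over 12 mitotic genes and -0.20 over all OL transcripts. These medians were shallower than those in OPCs, which also cover the 18 genes not listed for OLs. The OL levels were also lower, where a pseudocount of 1 flattens a slope. Slopes of the same genes in both cell types are compared further below. After scaling to the 0 h median, 15 of the 37 fell and 3 rose, where 20.1% of all OL transcripts fell and 30.4% rose. The helicase subunit Mcm6 was the steepest replication gene (-0.54 ± 0.06, adjusted p 4.48e-06), before Rfc3 (-0.50 ± 0.10, adjusted p 0.00049) and Rrm2 (-0.39 ± 0.05, adjusted p 1.76e-05). Top2a (-0.49 ± 0.05, adjusted p 3.83e-06), the cyclin Ccna2 (-0.48 ± 0.06, adjusted p 1.19e-05) and the checkpoint protein Mad2l1 (-0.43 ± 0.07, adjusted p 4.49e-05) were the steepest mitotic genes. Pcna (-0.08 ± 0.05, adjusted p 0.188), Pold2 (-0.09 ± 0.05, adjusted p 0.111), Gins4 (-0.14 ± 0.08, adjusted p 0.134) and Tyms (-0.17 ± 0.09, adjusted p 0.0866) did not pass. Among mitotic genes, Mki67 (-0.21 ± 0.06), Cdc20 (-0.21 ± 0.06) and Bub3 (-0.22 ± 0.05) were shallowest and still passed, with adjusted p of 0.00431, 0.00345 and 0.000607.

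Half-lives, fitted by the authors to each replicate with a ceiling of 6 h, were given in all 5 replicates for 36 of the genes, 24 of replication and 12 of mitosis. Their position was read against all 8112 such transcripts. Replication genes had median half-lives of 3.61, 4.51 and 4.94 h in OPC replicates 1, 2 and 3, above the medians of all transcripts of 2.35, 2.08 and 2.83 h. Their OL medians, by replicate, were 2.84 and 3.17 h, below those of all transcripts of 4.54 and 4.44 h. Mitotic genes had medians of 2.43, 2.17 and 2.31 h in OPCs, above the medians of all transcripts in replicates 1 and 2 and below it in replicate 3, and of 1.94 and 1.86 h in OLs, the latter being a value that many transcripts share through the fit. Counted by gene, the median of all transcripts had 4, 5 and 7 of the 24 replication genes below it in OPCs, but 18 and 15 in OLs. The corresponding counts for the 12 mitotic genes were 5, 5 and 7 in OPCs and 11 and 11 in OLs. Over all 34 replication genes with OPC half-lives, 10 of them without an OL value, the medians in OPCs were 3.14, 2.88 and 3.78 h. Over all 20 mitotic genes with OPC half-lives, 8 of them not listed for OLs, they were 2.09, 1.98 and 2.44 h. All OPC transcripts with a half-life had medians of 2.33, 2.05 and 2.79 h, below those of the replication genes and above those of the mitotic genes. The genes are not independent of each other, and no test was made of these medians.

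**Figure D3:**
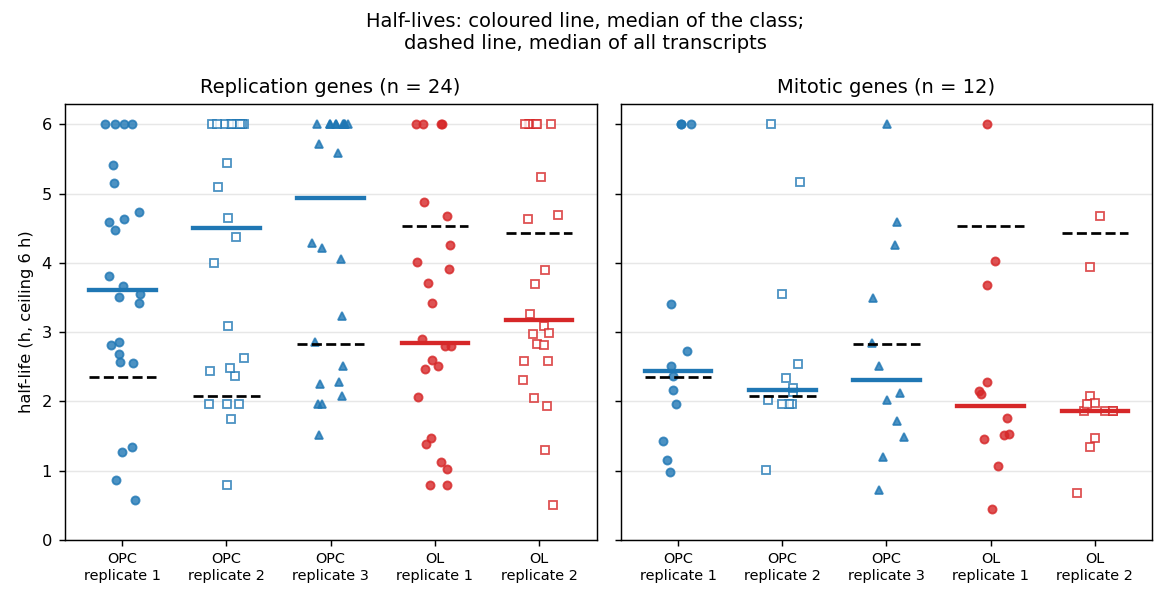
Half-life (h, y axis, ceiling 6 h) of 24 replication genes (left) and 12 mitotic genes (right) in each replicate, 1 symbol per gene, with the class median (coloured line) and the median of all 8112 transcripts (dashed line). Class medians of replication genes lie above the dashed line in all 3 OPC replicates and below it in both OL replicates, and those of mitotic genes in OLs are 1.94 and 1.86 h against 4.54 and 4.44 h.

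Gene by gene, 3 of the 36 half-lives were shorter in OLs and 0 were longer (limma on log2 half-life, adjusted p under 0.05), while 0.148% of all 8112 transcripts were shorter and 3.39% longer. After rescaling to 1 mean decay curve, 6 of the 36 were shorter and 0 longer, with 193 of all 8112 transcripts shorter and 87 longer, against 12 and 275 before. The median log2 difference, OL minus OPC, was -0.05 over replication genes, -0.61 over mitotic genes and 0.37 over all transcripts. Below 0 were 15 of 24, 10 of 12 and 1143 of 8112. The 48 other mitotic genes counted further below had a median of -0.04, with 24 below 0. For the 29 other replication genes it was 0.00, with 14 below 0. In 11 of the 36 genes both OL half-lives lay below all 3 OPC half-lives, against 2.01% of all transcripts, and in 2 both lay above, against 35.9%. The 11 comprised 5 of 24 replication and 6 of 12 mitotic genes.

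Mcm6 (transcript on chr1:128331590-128359664 of GRCm38, minus strand, 17 exons) had the largest difference of the 36 in the half-lives fitted by the authors. After a least-squares refit Top2a was the only one of the 36 to pass. OPC replicates 1, 2 and 3 gave 4.47, 3.99 and 5.72 h for Mcm6 (mean 4.73 ± 0.894 h, SD). OL replicates 1 and 2 gave 1.12 and 1.29 h (mean 1.20 ± 0.121 h). The log2 difference of Mcm6 was -1.96 ± 0.20 (SE, limma adjusted p 0.0414). Among all transcripts it stood at percentiles 69.9, 68.7 and 68.2 in OPCs and 7.90 and 3.30 in OLs. At 4 h, 53.8%, 49.9% and 71.0% of its 0 h level was left in OPCs, and 8.39% and 3.57% in OLs. These OL values rest on 0.874 and 0.197 FPKM. At 2 h Mcm6 held 78.6%, 99.6% and 78.5% in OPCs and 76.8% and 34.2% in OL replicates 1 and 2. It was listed at 0 in both OL libraries of 6 h. The other 5 helicase subunits did not pass, with differences from -0.69 (Mcm4) to 0.05 (Mcm3), although in Mcm4 and Mcm5 the groups did not overlap either. Mcm7, for comparison, had 2.86, 2.62 and 3.23 h in OPCs and 2.79 and 2.83 h in OLs.

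Top2a (chr11:98992943-99024189, minus strand, 36 exons) had half-lives of 6.00, 5.16 and 6.00 h in OPCs, with replicates 1 and 3 at the ceiling, and of 2.14 and 1.86 h in OLs (-1.52 ± 0.11, adjusted p 0.0274). At 4 h it was at 202%, 58.5% and 133% of its 0 h level in OPCs and at 21.2% and 23.3% in OLs. The 0 h level, the base of these percentages and half-lives, was low in OPC replicate 1. It was 33.7 FPKM there, against 129.9 and 81.9 FPKM in OPC replicates 2 and 3. The part of that low value in the half-life difference of Top2a was not tested. Pclaf (chr9:65890237-65903266, plus strand, 4 exons) was at the 6 h ceiling in all 3 OPC replicates and had 2.46 and 2.98 h in OLs (-1.15 ± 0.10, adjusted p 0.0328). It held 114%, 80.4% and 101% of its 0 h level at 4 h in OPCs and 44.8% and 37.1% in OLs. A value at the ceiling is a lower limit, and the spread of the 3 ceilings of Pclaf is 0 by construction. Its partner Pcna was at the ceiling in all 5 replicates, so no difference could be seen for it.

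Bub3 and Cdc20 went the other way. Bub3 had half-lives of 1.97, 2.34 and 2.02 h in OPCs and 6.00 and 4.68 h in OLs (1.33 ± 0.16, adjusted p 0.0519). Cdc20 had 1.43, 1.96 and 1.48 h in OPCs and 4.02 and 3.94 h in OLs (1.31 ± 0.17, adjusted p 0.0584). With each replicate centred on its median the differences were 0.43 for Bub3 (limma adjusted p 0.351) and 0.41 for Cdc20 (0.402). The median of all transcripts was then -0.53, against 0.37 before. After rescaling to 1 mean decay curve Bub3 was at 0.45 (0.478) and Cdc20 at 0.72 (0.188), beside a median of 0.00. Neither passed the threshold, and they are the 2 genes in which both OL values lay above all OPC values. At 6 h Bub3 kept 9.44%, 1.86% and 6.58% of its 0 h level in OPCs and 33.7% and 38.2% in OLs, and Cdc20 kept 5.09%, 6.01% and 8.53% in OPCs and 35.6% and 34.8% in OLs. The 0 h levels of Cdc20 in OLs were 10.6 and 3.20 FPKM, so its late OL values rest on 1.11 to 4.07 FPKM.

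**Figure D4:**
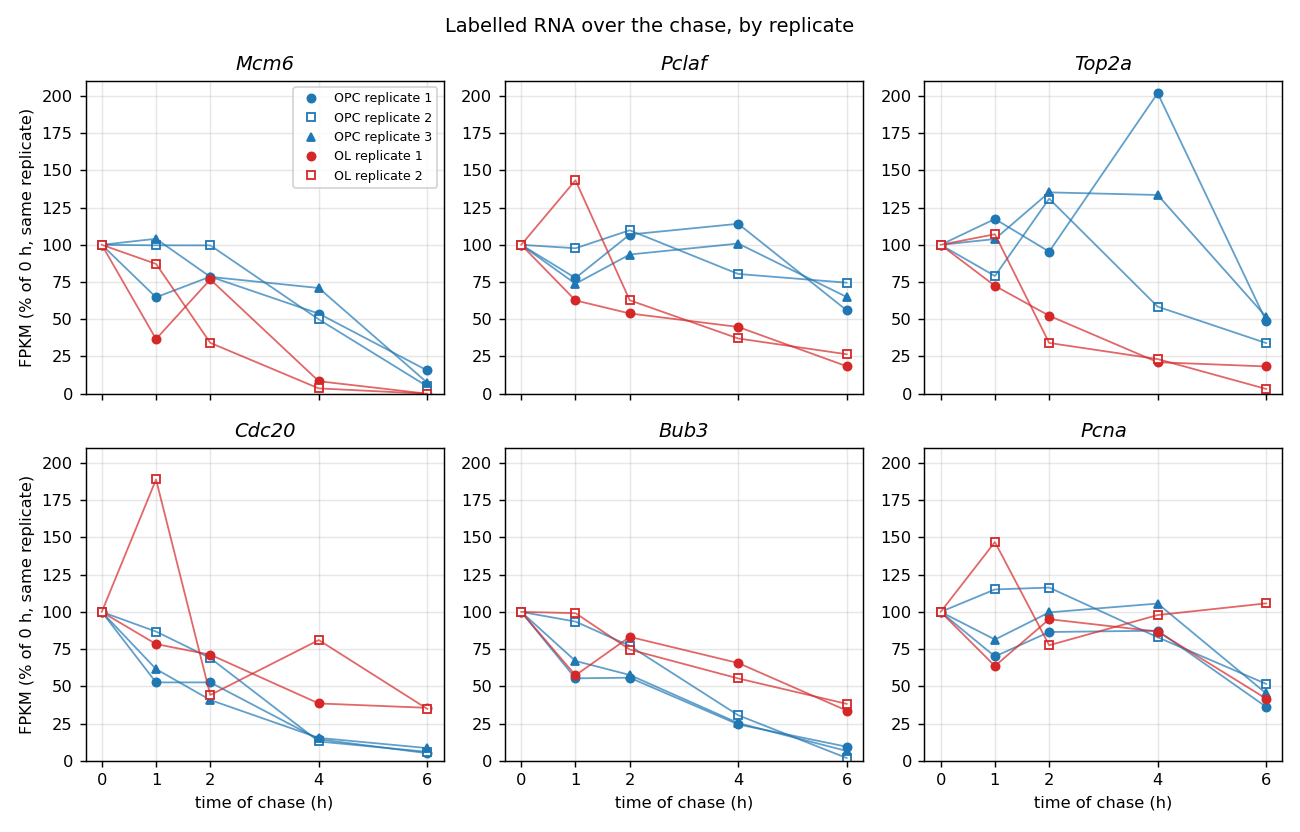
FPKM as a percentage of the same replicate's 0 h value (y axis) over the chase (h, x axis) for Mcm6, Pclaf, Top2a, Cdc20, Bub3 and Pcna, 1 line per replicate (OPC blue, OL red). At 4 h the OL lines lie below all OPC lines for Mcm6, Pclaf and Top2a and above them for Cdc20 and Bub3, and the lines of Pcna overlap.

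Other named genes with short half-lives did not pass the test. Aurka had the shortest of the mitotic genes, 0.979, 1.00 and 0.724 h in OPCs and 0.447 and 0.679 h in OLs (-0.70 ± 0.28, adjusted p 0.272), without overlap. Plk1 had 1.15, 1.96 and 1.19 h in OPCs and 1.06 and 1.47 h in OLs (-0.15 ± 0.34, adjusted p 0.932). Mad2l1 had 2.36, 2.54 and 3.49 h in OPCs and 1.53 and 1.34 h in OLs (-0.95 ± 0.22, adjusted p 0.123), without overlap. Ccna2 had 2.72, 2.20 and 2.50 h in OPCs and 2.11 and 1.86 h in OLs (-0.32 ± 0.13, adjusted p 0.27), also without overlap. Cdc6 had 0.568, 0.791 and 1.51 h in OPCs and 0.793 and 0.508 h in OLs (-0.47 ± 0.55, adjusted p 0.721).

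**Figure D5:**
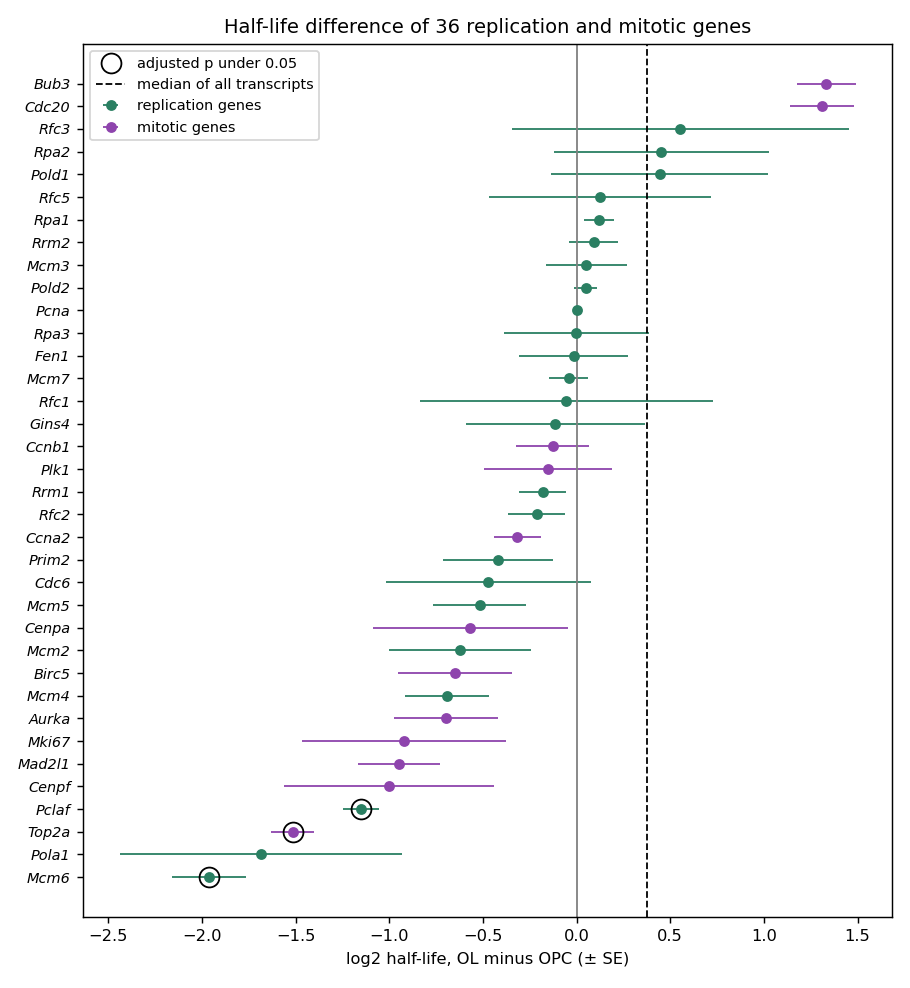
Log2 half-life difference, OL minus OPC (x axis, points, with SE as bars), of 24 replication genes (green) and 12 mitotic genes (purple), sorted, with circles around adjusted p under 0.05. Mcm6, Top2a and Pclaf are circled at -1.96, -1.52 and -1.15, most genes lie left of the median of all transcripts (dashed, 0.37), and Bub3 and Cdc20 lie at 1.33 and 1.31.

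Compared as slopes of log2(FPKM + 1), Top2a and Pclaf declined more steeply in OLs, 2 of 36 genes against 0.0863% of transcripts, and 8 of 36 more slowly, against 24.1%. The direction of the class medians turned with this measure. The median slope difference was 0.07 over replication genes and 0.09 over mitotic genes, slower in OLs for 17 of 24 and 11 of 12, beside 0.14 over all transcripts. With a pseudocount of 0.1, 0 were steeper (0% of transcripts) and 2 were shallower, Aurka and Cdc20, against 6.96%. The medians were then 0.05 over replication genes and -0.03 over mitotic genes, beside 0.22 over all transcripts.

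Some of these half-lives carry less information than their decimals show. Where the values at 1 and 2 h lie above the fitted curve and those at 4 and 6 h below it, least absolute deviations give 1.96 h whatever the values are. In OPC replicate 2, 25.8% of all half-lives were at that value, as were 16 of 54 listed genes, 9 of them mitotic and Cdc20 and Plk1 among them. In OL replicate 2, 5 of the 12 mitotic genes (41.7%) sat at such a value, against 2.91% of all transcripts: Top2a, Mki67, Ccna2 and Cenpa at a second one, 1.86 h, and Cenpf at 1.96 h. The mitotic class median of 1.86 h in that replicate is this value. Without transcripts at such a value in any replicate, 25 of the 36 genes remained, and 0 of them passed the test. Mcm6 (-1.96, adjusted p 0.072) and Pclaf (-1.15, adjusted p 0.0645), neither at such a value, had the same differences as before in that smaller fit. The 3 calls were 0 without OPC replicate 1, without OPC replicate 2 or without OPC replicate 3, 1 without OL replicate 1 (Pclaf), 2 without OL replicate 2 (Pclaf and Rrm1), and 0 without the 6 h libraries. With 1 OL replicate the spread comes from the OPCs alone, and that of Pclaf and Rrm1, at the ceiling in all 3 OPC replicates, is 0 by construction, so these calls carry no information. The study matches both OL replicates to OPC replicates without saying which. With same-numbered replicates as pairs (a replicate block) 0 genes passed. The limma adjusted p was then 0.195 for Mcm6, 0.155 for Top2a and 0.211 for Pclaf. No count over all transcripts is given for this block, so the 0 is not read as particular to these genes. The differences of Mcm6, Top2a and Pclaf stayed below 0 wherever they were computed, and Top2a, at a fixed value in OL replicate 2, has none without such transcripts. Without OPC replicate 2, Cdc20 was longer in OLs.

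Codon use was read from the coding sequences of the listed transcripts. The median share of UUU among phenylalanine codons was 50.0% in 35 replication genes and 48.5% in 20 mitotic genes, against 44.4% in all OPC transcripts, and that of AAA among lysine codons was 38.6% and 45.5% against 37.1%. Median GC3 was 59.1% and 54.0% against 60.7%. Each of the 6 class medians lay inside the quartiles of all OPC transcripts. Top2a had 56.4% UUU and 53.1% AAA, Mcm6 had 51.4% and 44.4%, and Pclaf had 33.3% and 61.5%.

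Further genes of the same processes were counted at 0 h, where 15.8% of all transcripts were lower in OLs and 13.8% higher. Of 45 other replication genes, 40 were listed for OPCs and 29 for both, of which 15 were lower in OLs and 0 higher (median over the 29 of -0.88), Uhrf1 (-3.39 ± 0.35), Dbf4 (-2.29 ± 0.39) and Dnmt1 (-2.06 ± 0.27) the most. Of 92 other mitotic gene symbols, 48 were listed for both cell types, 27 for OPCs only and 5 for OLs only. Among those listed for both, 35 were lower in OLs and 0 higher (median over the 48 of -1.73). Cdca3 (-3.54 ± 0.52), Kif18b (-3.30 ± 0.38) and Melk (-3.22 ± 0.23) differed the most. Among these 48, 3 had longer half-lives in OLs, where 3.39% of all transcripts did, and 0 shorter ones, where 0.148% did: Gtse1 (1.74 ± 0.17), Mis18a (1.61 ± 0.18) and Ncapd3 (1.10 ± 0.04). Mis18a was at the fixed 1.96 h in OPC replicates 2 and 3 and at the ceiling in OL replicate 2, and Ncapd3 at fixed values in OPC replicates 1 and 2, which narrows their spread. Without transcripts at such values, 26 of all transcripts were longer, against 275. Of the 20 regulators that bind E2F or CHR sites or act on those that do, 13 were listed for both, of which 2 were higher, the pocket protein genes Rb1 (1.68 ± 0.43) and Rbl2 (1.13 ± 0.31), and 3 lower, among them Tfdp1, the E2F partner (-0.86 ± 0.22). The adjusted p of these 12 named genes ran from 0.000164 to 0.0486.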

How the data were processed

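The series measured 5-EU-labelled RNA in 15 OPC and 10 OL libraries, plus 1 OPC library without biotin that was not analysed here. The submitters' processing notes name HISAT2 2.1.0 and StringTie 1.3.5. The authors deposited FPKM per transcript at 0, 1, 2, 4 and 6 h for transcripts left by a filter on 1 FPKM at 0 h and on values of 0 at 1 and 2 h, scaled to the reads of spike-in RNA. The 0 h columns are written to more decimals than the later ones, and whether they were scaled in the same way was not tested. The authors also deposited half-lives in h per replicate, another kind of value, fitted by least absolute deviations with a ceiling of 6 h. Scaling to spike-ins sets the absolute slope of all transcripts together, so slopes between genes are better determined than their common level. Depth per library is unknown, and no counting interval is given.

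Rows were taken by gene symbol. The members and lists were chosen with earlier results of these data known. limma 3.58.1 in R 4.3.3 was fitted across all transcripts, with Benjamini-Hochberg adjustment over all of them and a threshold of 0.05, to log2 half-life, to log2(FPKM + 1) at 0 h and to the slope of log2(FPKM + 1) on time. Fold changes on the log2(FPKM + 1) scale understate those of low genes. The study calls the replicates biological, with both OL replicates matched to OPC replicates that are not named. Replicates of a group at the same hour shared at most 1 identical value above 0. The scripts were tested on simulated data. Python 3.11.15, numpy 2.4.6, pandas 2.3.3 and matplotlib 3.10.9 were used.

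Genes named were those past the threshold in half-life, the 10 with the largest change at 0 h and any past it in the rarer direction, the 3 steepest and 3 shallowest of each class in each chase, those listed for 1 cell type or none, and families of these. At most 3 examples were taken from any other list. Genes that did not pass at 0 h, and other genes just outside a threshold or singled out for a contrast, were named after their values were seen. Alternatives were other scalings, pseudocounts of 0.1, a filter of 5 FPKM, a replicate block, no 6 h libraries and each replicate left out. A least-squares refit, removal of fixed half-lives and a slope with pseudocount 0.1 were added after seeing the data.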

Additional observations from a re-analysis of the deposited data

Results flagged for a closer look

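The difference between OLs and OPCs itself passed the test for 3 half-lives and for 10 slopes of the chase. The log2 half-life differences, OL minus OPC, were -1.96 for Mcm6, -1.52 for Top2a and -1.15 for Pclaf. When the slope of log2(FPKM + 1) per h was compared in place of the half-life, the decline was steeper in OLs for Top2a (a slope difference of -0.327, limma adjusted p 0.019) and Pclaf (-0.226, adjusted p 0.0445), where 0.0863% of 8112 transcripts were steeper. The slope was shallower in OLs for 8 genes, where 24.1% of transcripts were: Cdc6 (0.353), Rpa2 (0.356), Plk1 (0.439), Bub3 (0.443), Cdc20 (0.446), Rfc3 (0.453), Pold1 (0.534) and Aurka (0.551), with adjusted p from 0.00302 to 0.0274.

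The calls changed with the pseudocount. With a pseudocount of 0.1, Aurka (0.79, adjusted p 0.0351) and Cdc20 (0.42, adjusted p 0.0434) passed and none of the other 34 did, where 6.96% of transcripts were shallower. Aurka had the lower half-life in both OL replicates (0.447 and 0.679 h against 0.724 to 1.00 h in OPCs) while its slope was shallower there. Mcm6, with the largest half-life difference, had a slope difference of -0.03 (adjusted p 0.815) with a pseudocount of 1 and -0.52 (adjusted p 0.0509) with 0.1. The part of the low OL levels in these differences was not tested.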

How the results depend on the processing

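At 0 h the count of 32 genes lower in OLs stayed between 27 and 34 under every alternative run, with 0 higher, and all 10 named genes kept direction and call. The 3 shorter half-lives became 1 with each replicate centred on its median, 1 with a least-squares refit, 0 without the 6 h libraries, 0 as slopes with pseudocount 0.1, 0 without fixed half-lives and 6 after rescaling to 1 mean decay curve (193 of all transcripts against 12), and ranged from 0 to 2 with 1 replicate left out. With 1 OL replicate the lone sample is assumed to vary like the OPCs. The cause was not tested. Rescaling and centring move the median of all transcripts from 0.37 to 0.00 and -0.53. Genes with slower decay in OLs went from 0 to 8 as slopes with pseudocount 1, to 2 with pseudocount 0.1, and from 0 to 1 with 1 replicate left out (without OPC replicate 2).

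Scaling to the 0 h median, which removes the common decline by construction, gave 20 falling and 18 rising of the 55 genes in OPCs, and 15 falling and 3 rising of the 37 in OLs. Slopes in OPCs then turned to 0.42 (Rrm1), 0.43 (Pclaf), 0.46 (Pold2), 0.20 (Mki67), 0.17 (Cenpf) and 0.35 (Top2a), and in OLs to 0.10 (Gins4), 0.16 (Pold2), 0.18 (Pcna) and 0.038 (Bub3). Without the 6 h libraries the OPC slopes were 0.014 (Rrm1), 0.015 (Pclaf) and 0.063 (Top2a).

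The study matches both OL replicates to OPC replicates that it does not number. With a replicate block that pairs equal numbers, in which OPC replicate 3 has no partner, 0 half-lives were shorter and 34 genes were lower at 0 h. Counts over all transcripts are not given for the block, so these 2 counts are not read as particular to the genes. Deviations of same-numbered samples correlated at -0.0016 and -0.105 for half-lives and 0.059 and 0.010 at 0 h, and do not show which samples are the matched ones. The block leaves 1 residual degree of freedom per transcript. The 6 h ceiling, 2 OL replicates and unknown depth limit all half-life comparisons.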
